A study of Mus musculus with 12 samples.

Results

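The cytochrome P450 genes of the mouse colon were followed across 4 genotypes on whole-transcript arrays. A gene was taken as a member where a probe set carried exactly 1 platform symbol made of Cyp, a family number, a subfamily letter and a gene number, and the brightest probe set stood for the gene. This gave 90 genes of 22180 with a symbol. Members were split at the array median of the log2 signal, 4.88, into 34 genes above it and 56 below it. Cyp26b1, at a mean of 4.97, and Cyp2c23, at 4.95, lay just above that line, and Cyp11a1, which rounds to the same 4.88, and Cyp2d9, at 4.78, lay just below it. By family number, 57 of the 90 were drug and arachidonic acid oxidising enzymes of families 1 to 3, with 18 of them above the median. Family 4, the fatty acid omega-hydroxylases, gave 15 genes with 9 above. Bile acid and sterol enzymes gave 6 with 4 above, vitamin D and A enzymes 6 with 2 above, steroid hormone enzymes 5 with 0 above, and the orphan Cyp20a1 was above.

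Cytochromes P450 are heme enzymes that insert an oxygen atom into drugs, plant compounds, fatty acids, sterols and vitamins. Most sit in the endoplasmic reticulum and take electrons from NADPH through a partner reductase or cytochrome b5. In the gut they are found mainly in the absorptive epithelium, where the pregnane X receptor, the aryl hydrocarbon receptor, the vitamin D receptor and the HNF4 factors are known to control many of them. Some members also oxidise arachidonic acid or remove leukotriene B4, a lipid that attracts neutrophils.

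The colon was sampled from DKO mice (IL10-/- STING-/-), IL10KO mice (IL10-/- STING+/+), SKO mice (IL10+/+ STING-/-) and WT mice (IL10+/+ STING+/+). Each genotype had 3 arrays, 12 in all. IL-10 is an anti-inflammatory cytokine and STING an adaptor that senses cyclic dinucleotides and triggers interferon production. The comparison of DKO with IL10KO, which the design text names, asks what the loss of STING does where IL-10 is absent. The labels used here give no strain, age, sex, treatment or part of the colon. Nor do they say whether the arrays of a genotype represent different mice, so the p-values speak of the spread among these samples, which may be technical. The values are log2 signals as the authors deposited them, in which a difference of 1 is a 2-fold difference. The array gives no counts or detection calls, so a dim gene may or may not be expressed, and precision is limited by having 3 arrays a genotype. Signals of different probe sets cannot be compared as levels of their genes, so the split at the array median only sorts the members for description. Every difference below is on the log2 scale. A gene was called where limma's adjusted p, taken over all 22180 genes, was below 0.05.

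The genes deleted in the mutants were looked at first. Sting1, the gene of the STING protein, had a log2 signal of 4.23, 4.13 and 4.34 in the DKO arrays, 6.87, 8.09 and 7.33 in the IL10KO arrays, 4.40, 4.32 and 4.28 in the SKO arrays and 7.51, 6.40 and 4.56 in the arrays labelled WT. The library labelled WT replicate 3 therefore lay close to the STING-deficient arrays and went against its label, and results against WT are also given without it. Il10, the other deleted gene, had a log2 signal of 4.60, 4.49 and 4.33 in the DKO arrays, 4.59, 4.87 and 5.47 in the IL10KO arrays, 3.82, 3.65 and 3.70 in the SKO arrays and 3.65, 3.59 and 3.80 in the arrays labelled WT. All arrays labelled IL10-/- thus lay above all arrays labelled IL10+/+, and IL10KO minus WT was 1.29 ± 0.19 (SE, adjusted p = 0.00139), which on its face goes against the IL10 labels. Whether this probe set lies inside the deleted part of the gene is not known here, so its signal neither checks nor refutes them. IL10KO and DKO below are the names of libraries so labelled, and every direction drawn from them rests on those labels.

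Colonocyte markers (14 measured) averaged 11.14 to 11.33 in DKO, 10.51 to 10.77 in IL10KO, 11.03 to 11.23 in SKO and 11.13 to 11.14 in the arrays labelled WT, while 10 hepatocyte markers averaged between 5.11 and 5.55. Of these 10, Ttr and Alb were called lower in IL10KO against WT, beside 5.01% of all genes. Ttr was called higher in DKO against IL10KO, beside 3.34%. IL10KO replicate 1 had the highest array median, 5.02 in a range starting at 4.80. Pancreatic acinar markers averaged 8.18 and 11.04 on WT replicates 1 and 2 and 5.40 or less on the other arrays.

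Most P450 genes above the median had a lower mean signal in the colon of IL10KO mice than in WT, and most had a higher one in DKO than in IL10KO, but only a minority passed the test. In IL10KO against WT, 8 of 34 fell and 1 rose, while 8% of the 13409 genes above the median fell and 3.01% rose (5.01% and 3.12% of all genes). The median difference of the 34 was -0.45 on the log2 scale, against -0.11 over the genes above the median, and 27 of 34 were negative. Most genes above the median were negative too, 8373 of 13409. In DKO against IL10KO, 8 of 34 rose and 1 fell, while 5.37% of genes above the median rose and 2.33% fell (3.34% and 2.45% of all genes). Here the median was 0.45, against 0.10 over the genes above the median, and 25 of 34 were positive, as were 8349 of the 13409. All IL10KO arrays lay below all arrays labelled WT in 16 of 34 members (24.8% of genes above the median), and all DKO arrays lay above all IL10KO arrays in 13 of 34 (20.8%). The median deviation of the 34 genes from their own means was 0.35, -0.05 and -0.11 on the DKO arrays, -0.46, -0.11 and -0.47 on the IL10KO arrays, 0.16, 0.06 and 0.30 on the SKO arrays and 0.22, 0.06 and 0.07 on the arrays labelled WT. IL10KO replicates 1 and 3 and DKO replicate 1 stood out, while IL10KO replicate 2 lay near DKO replicates 2 and 3. Both comparisons share the IL10KO arrays, so a high or low IL10KO value enters them with opposite sign. Between them, 5 of the 34 genes were called in both, 4 in IL10KO against WT alone, 4 in DKO against IL10KO alone and 21 in neither. The share of all genes called in both was not counted, so the 5 cannot be set against a background.

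Counts over all 90 members moved with single libraries, and so did those over all genes. In IL10KO against WT, 6 rose and 8 fell, and the number called was 6 without IL10KO replicate 3, WT replicate 1 or the library labelled WT replicate 3, and 8 once WT replicate 2 was left out. Over all genes, the number called went from 1805 to 1102, 993, 888 and 783 in these omissions, in the order given. The median difference of the 34 genes above the array median was -0.41 with the third WT library left out (-0.11 over the genes above the median, of which 3.76% fell and 1.88% rose). The 6 calls left were Cyp2c55, Cyp2d13, Cyp2d22 and Cyp2s1, lower, and Cyp4f18 and Cyp2b19, higher. In DKO against IL10KO, 8 rose and 3 fell, and the number called was 1 without DKO replicate 1 (Cyp2c55), 5 without DKO replicate 2, 7 once IL10KO replicate 3 and 18 once IL10KO replicate 2 was left out. Over all genes, the number called went from 1284 to 425, 504, 836 and 2361 in these omissions, in the order given. Leaving out IL10KO replicate 1, SKO replicate 2 and the library labelled WT replicate 3 together, a choice made after seeing the data, ended every call against WT above the median but those of Cyp2c55 and Cyp4f18. A fit of the 2 genotypes compared alone ended every DKO against IL10KO call above the median but those of Cyp2c55, Cyp2c65 and Cyp4f14. Centring every array on its median gave 3 higher and 7 lower in IL10KO against WT, beside 1475 calls over all genes. In tissue RNA, fewer cells of a type and less RNA per cell cannot be told apart.

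**Figure D1:**
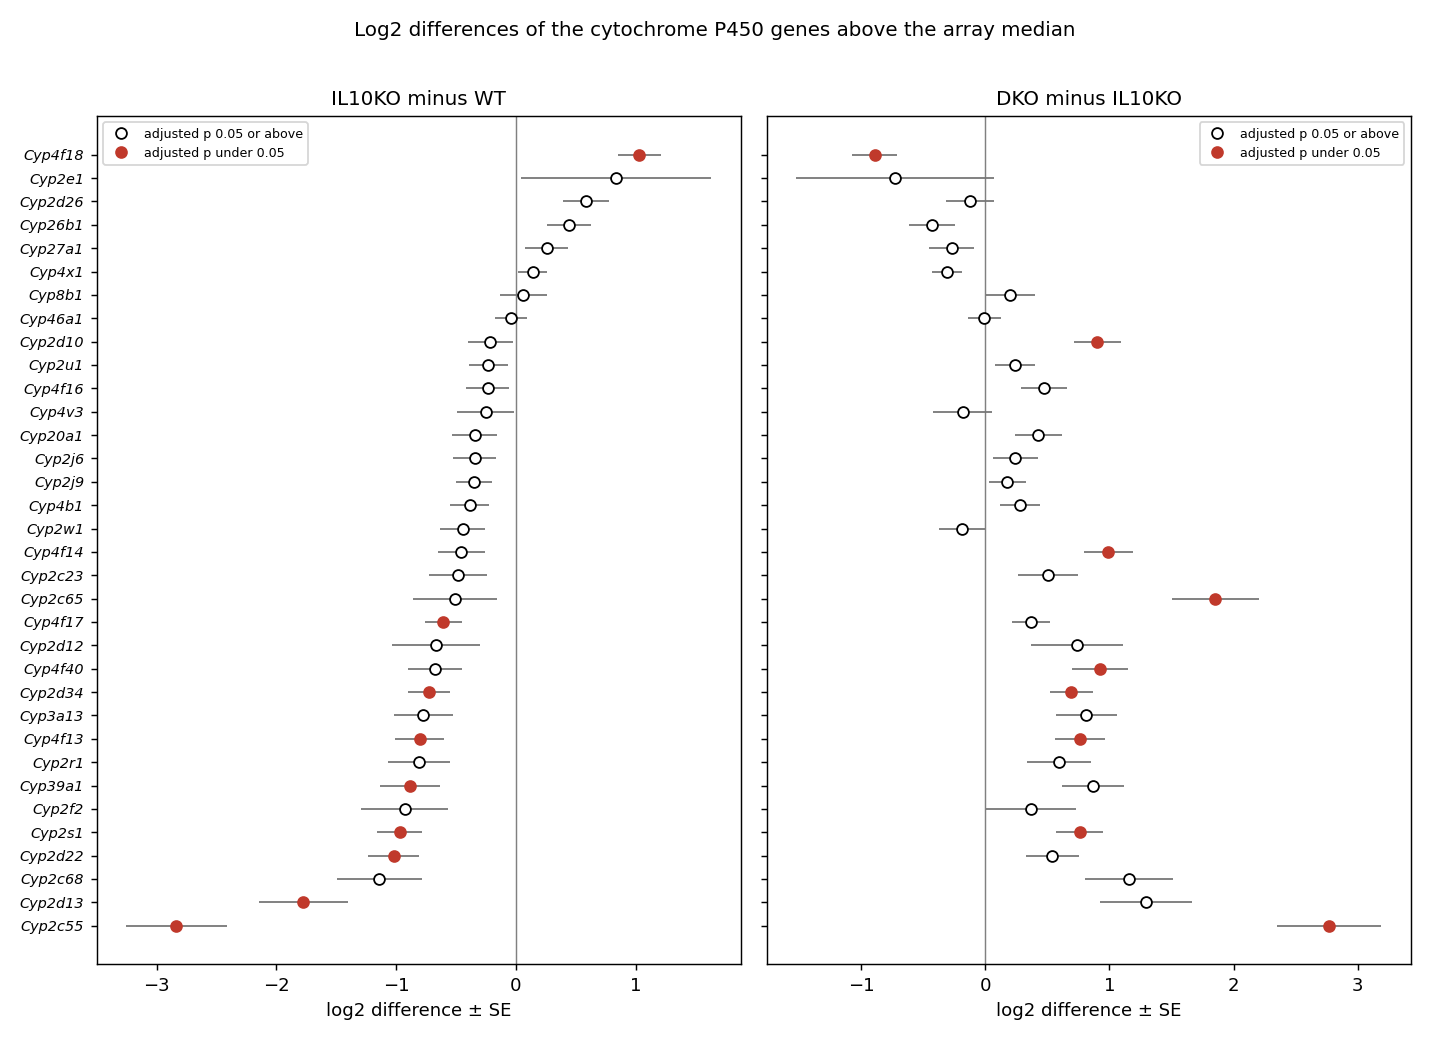
Log2 difference with its standard error (x axis) of the 34 P450 genes above the array median (y axis), IL10KO minus WT on the left and DKO minus IL10KO on the right, in one gene order. Filled red points had an adjusted p below 0.05, and Cyp2c55 lies at the far low end on the left, at -2.83, and at the far high end on the right, at 2.77.

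Cyp2c55 had the largest difference of any member in both comparisons. It encodes an enzyme of the mouse gut that oxidises arachidonic acid. Its log2 signal (probe set 17359239) was 10.86, 10.86 and 10.94 in the DKO arrays, 8.94, 6.86 and 8.54 in the IL10KO arrays, 11.61, 11.37 and 11.38 in the SKO arrays and 10.28, 10.97 and 11.61 in the arrays labelled WT. Every IL10KO array lay below every array of the other genotypes, with the lowest value on IL10KO replicate 2. The difference was -2.83 ± 0.42 (SE, adjusted p = 0.00172), a 7.13-fold lower signal in IL10KO than in WT. Against IL10KO, the DKO signal was 6.82-fold higher, 2.77 ± 0.42 (SE, adjusted p = 0.00244). Both calls stood in each of the 12 omissions of a single array, with a difference to WT of -2.51 (adjusted p = 0.00767) without the library labelled WT replicate 3. A second, dimmer probe set of the gene, at a mean of 5.69, differed by only -0.24 and 0.18 in these comparisons and was not called in either. The gene's values therefore rest on the brighter probe set.

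Cyp2c65, the neighbour of Cyp2c55 in the Cyp2c cluster on chromosome 19 and another arachidonic acid oxidase of the gut, followed another order. Its log2 signal (probe set 17359251) was 6.80, 6.74 and 5.77 in the DKO arrays, 5.07, 4.22 and 4.47 in the IL10KO arrays, 5.90, 5.33 and 4.84 in the SKO arrays and 4.66, 4.90 and 5.73 in the arrays labelled WT. All DKO arrays lay above all IL10KO arrays and above all arrays labelled WT, but overlapped with SKO, and the IL10KO and WT arrays overlapped. The DKO signal rose by 1.85 ± 0.35 (SE, adjusted p = 0.00884) against IL10KO, a call that ended without DKO replicate 1 (adjusted p = 0.0516). The IL10KO minus WT difference was -0.51 ± 0.35 (SE, adjusted p = 0.373), which did not pass. Of the 14 measured Cyp2c genes, 4 lay above the median and had negative IL10KO minus WT differences. Besides this pair they were Cyp2c68, at -1.14 ± 0.35 (SE, adjusted p = 0.0633), and Cyp2c23, at -0.48 ± 0.24 (SE, adjusted p = 0.227), and neither passed. Cyp2c genes are close paralogs, and their probes may pick up RNA of a neighbour.

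The sequence upstream of both genes is shown because the pair lies side by side but differed in its order across genotypes. RefSeq promoters (GRCm38.p6) were matched for 70 of the 90 members, and the windows below are the 250 bases before the start site. Capitals mark matches on either strand to the core promoter box TATAAA, to a core of the HNF4 binding motif, CAAAGTCCA, or to the common upstream box CCAAT. A match of the last on the opposite strand reads ATTGG here. Cyp2c55 is at chr19:39006769-39007018 and Cyp2c65 at chr19:39060756-39061005, both on the plus strand.
Cyp2c55: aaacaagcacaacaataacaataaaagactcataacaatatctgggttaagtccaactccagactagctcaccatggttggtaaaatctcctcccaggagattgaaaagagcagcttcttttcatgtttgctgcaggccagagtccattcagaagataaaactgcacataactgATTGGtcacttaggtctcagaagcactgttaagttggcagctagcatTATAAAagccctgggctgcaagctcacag
Cyp2c65: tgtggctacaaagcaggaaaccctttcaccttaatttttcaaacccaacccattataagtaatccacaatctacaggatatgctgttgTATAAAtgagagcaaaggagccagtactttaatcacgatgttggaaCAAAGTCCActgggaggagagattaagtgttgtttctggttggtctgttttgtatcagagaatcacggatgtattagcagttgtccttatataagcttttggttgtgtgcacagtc
In Cyp2c55, TATAAA starts 29 bases before the start site and a CCAAT match 76 bases before it. In Cyp2c65, TATAAA starts 162 bases before the start and CAAAGTCCA 116 bases before it. Over 32851 promoter windows, 12.4% held the first of these motifs, 0.384% the HNF4 core and 33.8% the CCAAT box. The aryl hydrocarbon receptor core GCGTG, found in 28.2% of windows, was in neither. No marked match overlaps another. These are exact matches of letters, not sites of binding. Near forms of TATAAA were not searched, and the one close to the Cyp2c65 start site is not marked.

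The Cyp2d genes, relatives of a main drug oxidase of the human liver, gave 3 of the 8 falls in IL10KO. Cyp2d13 (probe set 17319674) had a log2 signal of 9.10, 7.82 and 7.71 in the DKO arrays, 6.33, 7.83 and 6.59 in the IL10KO arrays, 8.63, 8.58 and 8.74 in the SKO arrays and 8.93, 8.65 and 8.50 in the arrays labelled WT. Every IL10KO array lay below the SKO arrays and those labelled WT, but IL10KO replicate 2 overlapped with DKO. The fall was -1.78 ± 0.37 (SE, adjusted p = 0.0119), and the DKO minus IL10KO difference of 1.3 ± 0.37 (SE, adjusted p = 0.0564) did not pass. Cyp2d22 (probe set 17319625), often named the mouse counterpart of that human enzyme, had a log2 signal of 7.24, 6.90 and 6.83 in the DKO arrays, 5.95, 6.99 and 6.39 in the IL10KO arrays, 7.30, 7.42 and 7.59 in the SKO arrays and 7.44, 7.53 and 7.43 in the arrays labelled WT. The DKO arrays overlapped with IL10KO and, like IL10KO, lay below every SKO array and every array labelled WT. The IL10KO signal fell by 1.02 ± 0.21 (SE, adjusted p = 0.0118) against WT, and DKO minus IL10KO was 0.54 ± 0.21 (SE, adjusted p = 0.14). Both falls stood in each of the 12 single omissions but ended without the 3 libraries (adjusted p = 0.0827 and 0.0692), and that of Cyp2d22 also when only the genotypes compared were fitted (adjusted p = 0.0574). They had differences of -1.87 (adjusted p = 0.028) and -1.04 (adjusted p = 0.0352) without the library labelled WT replicate 3.

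Cyp2d34 (probe set 17319661) had a log2 signal of 10.04, 9.86 and 9.41 in the DKO arrays, 9.09, 9.21 and 8.94 in the IL10KO arrays, 9.90, 9.48 and 9.91 in the SKO arrays and 9.90, 9.79 and 9.72 in the arrays labelled WT. The IL10KO arrays lay below all others. The difference was -0.73 ± 0.17 (SE, adjusted p = 0.023) against WT, and DKO minus IL10KO was 0.69 ± 0.17 (SE, adjusted p = 0.0338). The first call ended without IL10KO replicate 1 or 3 or any array labelled WT (adjusted p up to 0.0782), and the second without IL10KO replicate 1 or 3 or DKO replicate 1 or 2 (up to 0.15).

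Cyp2d10 (probe set 17319649) resembled Cyp2c65 in being called in DKO against IL10KO alone. Its log2 signal was 5.65, 6.12 and 5.34 in the DKO arrays, 4.64, 4.99 and 4.76 in the IL10KO arrays, 5.16, 5.26 and 5.51 in the SKO arrays and 5.03, 4.82 and 5.19 in the arrays labelled WT. The DKO arrays lay above the IL10KO arrays and those labelled WT and overlapped with SKO. The DKO signal rose by 0.90 ± 0.19 (SE, adjusted p = 0.0153) against IL10KO, a call that ended without DKO replicate 1 or 2 (adjusted p up to 0.0691), without the 3 libraries or with only the genotypes compared (up to 0.0592), while IL10KO minus WT was -0.21 ± 0.19 (SE, adjusted p = 0.496). Of the 9 Cyp2d genes measured, 6 were above the median and 5 of these had negative IL10KO minus WT differences. Cyp2d26 was the other, at 0.58 ± 0.20 (SE, adjusted p = 0.0805), and did not pass, and Cyp2d12 gave -0.67 ± 0.37 (SE, adjusted p = 0.271). Cyp2d genes are near-identical in places, so the split of signal between them is uncertain.

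Cyp2s1, an epithelial P450 that the aryl hydrocarbon receptor induces, was lower in IL10KO too. Its log2 signal (probe set 17488057) was 9.29, 8.85 and 8.82 in the DKO arrays, 8.04, 8.65 and 8.0 in the IL10KO arrays, 9.19, 9.19 and 9.50 in the SKO arrays and 9.26, 9.14 and 9.19 in the arrays labelled WT. No IL10KO array reached the lowest array of another genotype. The difference was -0.97 ± 0.19 (SE, adjusted p = 0.00779) against WT, which ended without the 3 libraries (adjusted p = 0.0644) and stood in each single omission (-0.97, adjusted p = 0.0266, without the library labelled WT replicate 3). DKO minus IL10KO was 0.76 ± 0.19 (SE, adjusted p = 0.0306), a call that ended without IL10KO replicate 1 or 3 or DKO replicate 1 or 2 (adjusted p up to 0.14). Ahr itself, the receptor gene, differed by -0.53 ± 0.15 (SE, adjusted p = 0.052) in IL10KO against WT and did not pass. Cyp1a1, a classical target of the receptor, lay below the array median and differed by 0.10 ± 0.15 (SE, adjusted p = 0.685).

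Cyp3a13, a drug-oxidising P450 of the mouse gut, was not called. Its log2 signal (probe set 17454193) was 9.04, 8.66 and 8.23 in the DKO arrays, 7.83, 8.23 and 7.44 in the IL10KO arrays, 8.43, 8.36 and 8.86 in the SKO arrays and 8.98, 8.46 and 8.37 in the arrays labelled WT. The IL10KO arrays lay below those labelled WT, and the lowest DKO array was barely above the highest IL10KO array. The differences were -0.77 ± 0.25 (SE, adjusted p = 0.0682) in IL10KO against WT and 0.81 ± 0.25 (SE, adjusted p = 0.0674) in DKO against IL10KO. The other members of these families above the median that did not pass in either comparison included Cyp2f2, at -0.93 ± 0.37 (SE, adjusted p = 0.128), and Cyp2j6, at -0.35 ± 0.18 (SE, adjusted p = 0.243). In all, 5 of the 18 drug and arachidonic acid enzymes above the median fell in IL10KO against WT, beside 8% of genes above the median, and 5 rose in DKO against IL10KO, beside 5.37%.

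**Figure D2:**
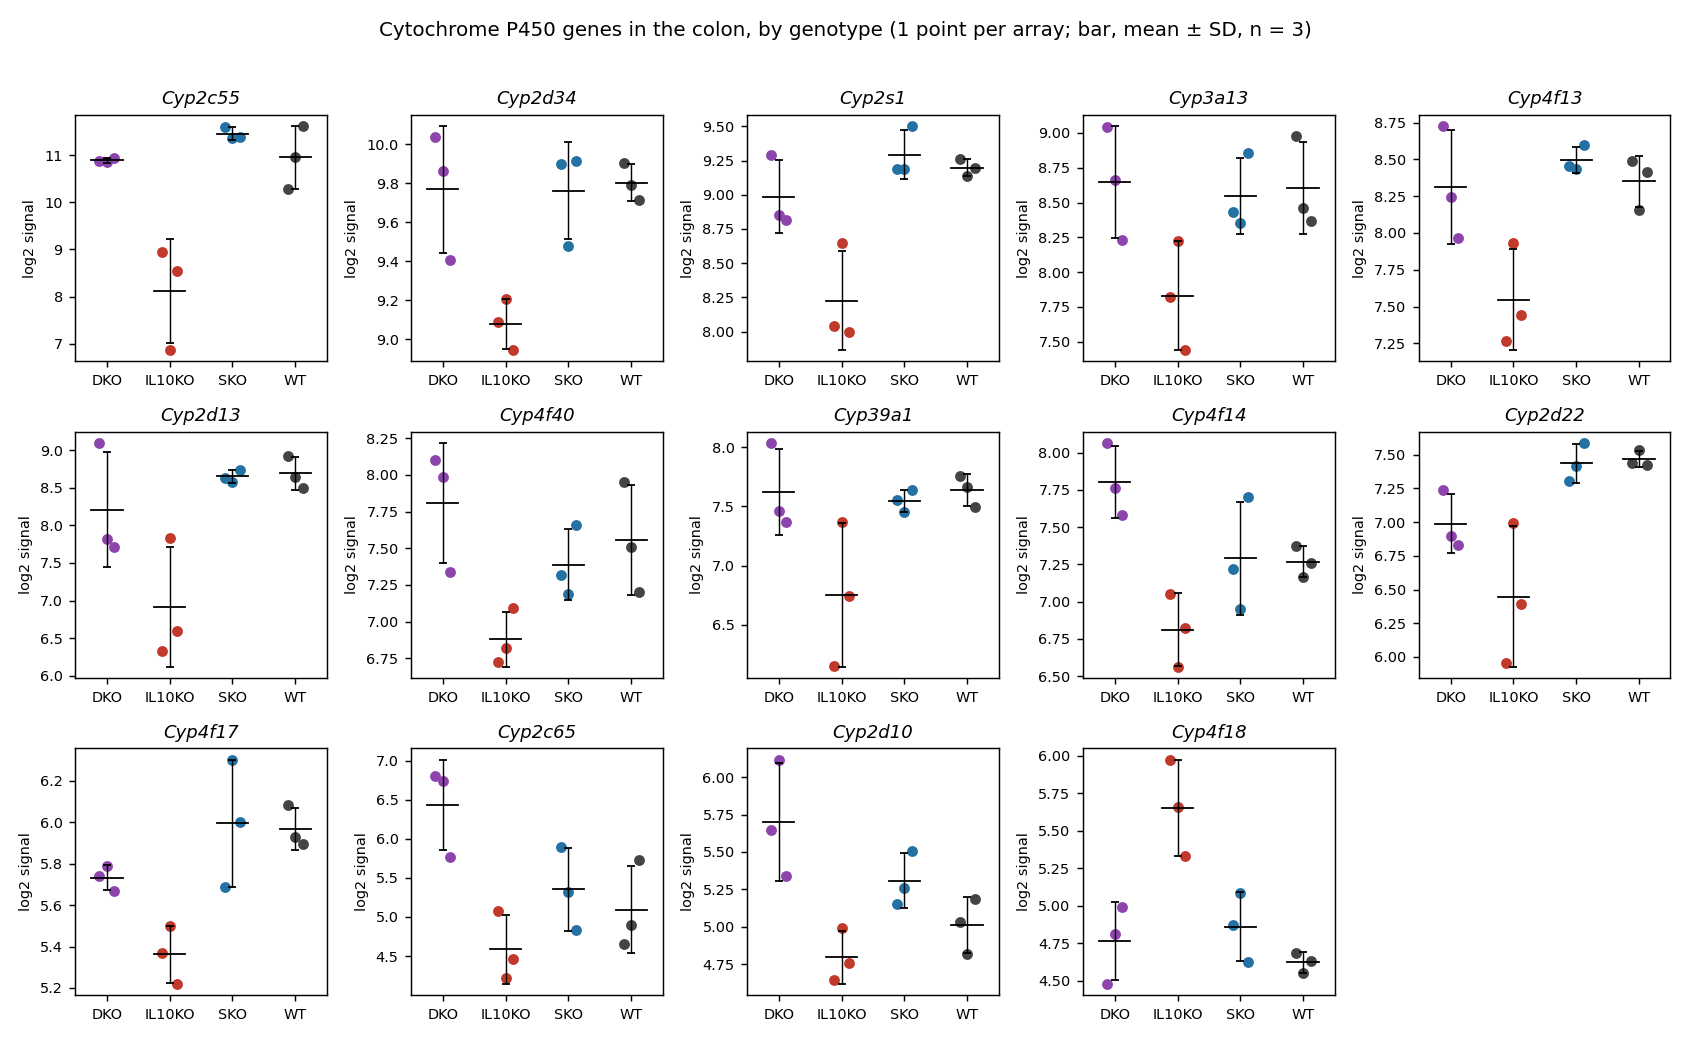
Log2 signal (y axis) of 14 P450 genes in the 4 genotypes (x axis), with 1 point per array and the mean ± SD of 3 arrays. The genes are the 13 above the median that were called in IL10KO against WT or DKO against IL10KO, and Cyp3a13. For Cyp2c55, the IL10KO arrays reached at most 8.94 and every other array at least 10.28, and for Cyp4f18 the IL10KO arrays lay above all others.

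Cyp2e1, the ethanol-oxidising P450, which fat cells also express, varied widely within genotypes. Its log2 signal was 7.18, 4.14 and 5.04 in the DKO arrays, 5.01, 7.26 and 6.27 in the IL10KO arrays, 4.22, 4.84 and 4.78 in the SKO arrays and 4.91, 7.09 and 4.02 in the arrays labelled WT. One DKO, one IL10KO and one WT array stood near 7 or above, and arrays of all genotypes lay near 5 or below. IL10KO minus WT was 0.84 ± 0.80 (SE, adjusted p = 0.527) and DKO minus IL10KO -0.73 ± 0.80 (SE, adjusted p = 0.59). The 6 adipocyte markers were highest on DKO replicate 1 and WT replicate 2, followed by IL10KO replicate 3. They averaged 6.87, 5.0 and 5.60 in DKO, 5.51, 6.03 and 6.44 in IL10KO, 4.94, 5.11 and 5.35 in SKO and 5.18, 6.59 and 5.07 in the arrays labelled WT. On IL10KO replicate 2, where Cyp2e1 was highest, they averaged 6.03, so the match of arrays was partial. Adipoq, the adiponectin gene that defines fat cells, was 5.95 on DKO replicate 1 and 5.70 on WT replicate 2 and 3.94 to 4.98 elsewhere. The part of fat cells in the Cyp2e1 signal was not tested.

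The family 4 enzymes hydroxylate the far end of fatty acids and eicosanoids. Of the 9 above the median, 2 fell and 1 rose in IL10KO against WT, and 3 rose and 1 fell in DKO against IL10KO. Of genes above the median, 8% fell and 3.01% rose in the first comparison, and 5.37% rose and 2.33% fell in the second. Cyp4f13 (probe set 17343505), an omega-hydroxylase, had a log2 signal of 8.73, 8.24 and 7.97 in the DKO arrays, 7.27, 7.93 and 7.44 in the IL10KO arrays, 8.46, 8.43 and 8.60 in the SKO arrays and 8.49, 8.16 and 8.41 in the arrays labelled WT. The IL10KO arrays lay below all others, with a narrow gap to the lowest DKO array. It fell by 0.80 ± 0.20 (SE, adjusted p = 0.0286) against WT, a call that ended without IL10KO replicate 1 or 3, WT replicate 1 or the library labelled WT replicate 3 (adjusted p up to 0.0965). DKO minus IL10KO was 0.76 ± 0.20 (SE, adjusted p = 0.0427), which passed in 3 of the 12 single omissions (without IL10KO replicate 2, DKO replicate 3 or SKO replicate 2) and reached an adjusted p of 0.177 in the rest.

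Cyp4f17 (probe set 17335952) had a log2 signal of 5.74, 5.79 and 5.67 in the DKO arrays, 5.37, 5.50 and 5.22 in the IL10KO arrays, 5.69, 6.30 and 6.0 in the SKO arrays and 6.08, 5.93 and 5.89 in the arrays labelled WT. All IL10KO arrays lay below all others. It fell by 0.61 ± 0.15 (SE, adjusted p = 0.0294) against WT, a call that ended without IL10KO replicate 1 or 3 or any array labelled WT (adjusted p up to 0.102), and DKO minus IL10KO was 0.37 ± 0.15 (SE, adjusted p = 0.161). Cyp4f14 (probe set 17343488), a leukotriene B4 hydroxylase, was called only in DKO against IL10KO. Its log2 signal was 8.07, 7.76 and 7.58 in the DKO arrays, 7.05, 6.56 and 6.82 in the IL10KO arrays, 7.22, 6.95 and 7.70 in the SKO arrays and 7.38, 7.17 and 7.26 in the arrays labelled WT. The DKO arrays lay above the IL10KO arrays and those labelled WT, and one SKO array fell among the IL10KO values. The DKO signal rose by 0.99 ± 0.20 (SE, adjusted p = 0.011) against IL10KO, a call that ended without DKO replicate 1 (adjusted p = 0.0627), and IL10KO minus WT was -0.46 ± 0.20 (SE, adjusted p = 0.159).

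Cyp4f40 (probe set 17335998) had a log2 signal of 8.10, 7.99 and 7.34 in the DKO arrays, 6.73, 6.82 and 7.09 in the IL10KO arrays, 7.32, 7.19 and 7.66 in the SKO arrays and 7.95, 7.51 and 7.20 in the arrays labelled WT. The IL10KO arrays lay below all others, and the DKO arrays overlapped with SKO and with those labelled WT. The DKO signal rose by 0.93 ± 0.23 (SE, adjusted p = 0.0296) against IL10KO, a call that ended without IL10KO replicate 1 or DKO replicate 1 or 2 (adjusted p up to 0.135), and IL10KO minus WT was -0.67 ± 0.23 (SE, adjusted p = 0.0809).

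Cyp4f18, which in mice encodes a leukotriene B4 hydroxylase of neutrophils, went the other way. Its log2 signal (probe set 17510462) was 4.48, 4.81 and 4.99 in the DKO arrays, 5.97, 5.66 and 5.33 in the IL10KO arrays, 4.87, 5.08 and 4.63 in the SKO arrays and 4.69, 4.55 and 4.63 in the arrays labelled WT. Every IL10KO array lay above every other array. The signal rose by 1.03 ± 0.18 (SE, adjusted p = 0.00482) in IL10KO against WT and fell by 0.89 ± 0.18 (SE, adjusted p = 0.0134) in DKO against IL10KO. The first call stood in each single omission (1.03, adjusted p = 0.0185, without the library labelled WT replicate 3), and the second ended without DKO replicate 1 (adjusted p = 0.073) or with only the genotypes compared (adjusted p = 0.0581). The 9 neutrophil markers averaged 4.54 to 4.76 in DKO, 6.37, 8.09 and 7.19 in IL10KO, 4.42 to 4.58 in SKO and 4.46 to 4.73 in the arrays labelled WT. Of these markers, 8 rose in IL10KO against WT and 8 fell in DKO against IL10KO, beside 3.12% and 2.45% of all genes. The part of neutrophils in the Cyp4f18 result was not tested.

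The promoters of Cyp4f13 and Cyp4f18 are set side by side because these family members moved in opposite directions. Cyp4f13 is at chr17:32947362-32947611 and Cyp4f18 at chr8:72009627-72009876, both on the minus strand and printed along the gene, with capitals marking CCAAT matches (as ATTGG).
Cyp4f13: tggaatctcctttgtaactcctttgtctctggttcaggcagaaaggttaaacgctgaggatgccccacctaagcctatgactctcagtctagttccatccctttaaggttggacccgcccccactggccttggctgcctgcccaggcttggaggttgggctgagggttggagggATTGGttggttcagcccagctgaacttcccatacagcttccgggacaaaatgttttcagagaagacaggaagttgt
Cyp4f18: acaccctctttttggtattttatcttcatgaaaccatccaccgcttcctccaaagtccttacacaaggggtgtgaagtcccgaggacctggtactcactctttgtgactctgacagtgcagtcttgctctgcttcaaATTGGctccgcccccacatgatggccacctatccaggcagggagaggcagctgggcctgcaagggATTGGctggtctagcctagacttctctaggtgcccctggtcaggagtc
Cyp4f13 holds 1 match, 76 bases before the start site, and Cyp4f18 holds 2, at 113 and 48 bases. Neither window holds the letters of the other motifs searched.

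Among the enzymes of bile acids and sterols, Cyp39a1, which hydroxylates an oxysterol made from cholesterol, was called. Its log2 signal (probe set 17337816) was 8.04, 7.46 and 7.37 in the DKO arrays, 6.15, 7.37 and 6.74 in the IL10KO arrays, 7.56, 7.45 and 7.64 in the SKO arrays and 7.76, 7.66 and 7.49 in the arrays labelled WT. The IL10KO arrays lay below all others, with IL10KO replicate 2 just under the lowest DKO array. The difference was -0.88 ± 0.25 (SE, adjusted p = 0.0458) against WT and 0.87 ± 0.25 (SE, adjusted p = 0.0581) in DKO against IL10KO, which did not pass. The call against WT stood only without IL10KO replicate 2 or DKO replicate 1 and ended in the other 10 single omissions (adjusted p up to 0.145). Cyp27a1, the mitochondrial sterol hydroxylase, gave 0.26 ± 0.18 (SE, adjusted p = 0.392).

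The members above the median nearest to no difference in IL10KO against WT were Cyp46a1, Cyp8b1, Cyp4x1, Cyp2d10 and Cyp2u1. Cyp46a1, the cholesterol hydroxylase of neurons, differed by -0.04, with a 95% interval of -0.33 to 0.24. Cyp8b1, the enzyme that leads to cholic acid, differed by 0.06, with an interval of -0.36 to 0.49. Differences of 1 lie outside both intervals, but differences that lie within them cannot be told from none. Cyp4x1 differed by 0.14 (interval -0.12 to 0.40), Cyp2d10 by -0.21 (interval -0.62 to 0.19) and Cyp2u1 by -0.23 (interval -0.58 to 0.12). Of the vitamin enzymes, neither Cyp2r1, a vitamin D hydroxylase, at -0.81 ± 0.26 (SE, adjusted p = 0.0713), nor Cyp26b1, which clears retinoic acid, at 0.44 ± 0.18 (SE, adjusted p = 0.145), passed. The orphan Cyp20a1 was at -0.34 ± 0.19 (SE, adjusted p = 0.257).

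Few of the 56 dimmer members were called, and those that were rose in IL10KO. In IL10KO against WT, 5 rose and 0 fell, beside 3.31% and 0.445% of the 8771 genes below the median, and their median difference of 0.20 stood beside 0.17 over those genes. Without the library labelled WT replicate 3, 1 rose and 0 fell, beside 1.21% and 0.296% of genes below the median. In DKO against IL10KO, 0 rose and 2 fell, beside 0.228% and 2.65%, with medians of -0.21 and -0.19. The called genes were Cyp2b19, Cyp4f39, Cyp11a1, Cyp7b1 and Cyp1b1. Dim signals were higher over many genes of the IL10KO arrays. All IL10KO arrays lay above all arrays labelled WT in 20.7% of genes below the median. The calls against WT of Cyp4f39, Cyp7b1 and Cyp1b1 ended under quantile normalization and also under median centring. Those of Cyp2b19 and Cyp11a1 stood under both. Beyond this, the part of the dim-signal shift in the single calls was not tested.

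Cyp2b19, a P450 of the epidermis, had a log2 signal of 2.42, 2.44 and 2.75 in the DKO arrays, 3.78, 3.30 and 4.82 in the IL10KO arrays, 2.46, 2.80 and 2.58 in the SKO arrays and 2.59, 2.57 and 2.64 in the arrays labelled WT. Every IL10KO array lay above all others. It rose by 1.37 ± 0.28 (SE, adjusted p = 0.01) against WT and fell by 1.43 ± 0.28 (SE, adjusted p = 0.0101) in DKO against IL10KO. The first call stood in each single omission (1.39, adjusted p = 0.0303, without the library labelled WT replicate 3), and the second ended without DKO replicate 1 (adjusted p = 0.0508). With only the genotypes compared, both ended (adjusted p = 0.0602 and 0.0579). Cyp4f39, which makes the very long omega-hydroxy fatty acids of the skin barrier, had a log2 signal of 4.18, 3.66 and 4.16 in the DKO arrays, 4.30, 5.89 and 5.66 in the IL10KO arrays, 4.16, 4.63 and 4.12 in the SKO arrays and 4.28, 4.11 and 4.17 in the arrays labelled WT. IL10KO replicates 2 and 3 stood apart, while IL10KO replicate 1 lay among the other genotypes. It rose by 1.10 ± 0.32 (SE, adjusted p = 0.0485) and fell by 1.29 ± 0.32 (SE, adjusted p = 0.0314), and among single omissions the call against WT stood only without IL10KO replicate 1 or SKO replicate 2 (adjusted p up to 0.149 otherwise). The fall in DKO ended without IL10KO replicate 2 or 3 or any DKO array (up to 0.13).

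The 15 stratified squamous and sebaceous markers were high on some of the same arrays. They averaged 4.10, 4.13 and 5.09 in DKO, 5.08, 7.25 and 7.21 in IL10KO, 4.04 to 4.23 in SKO and 4.06 to 4.13 in the arrays labelled WT. Of them, 12 rose in IL10KO against WT and 7 fell in DKO against IL10KO, beside 3.12% and 2.45% of all genes. Cyp4f39 was also highest on IL10KO replicates 2 and 3, but for Cyp2b19 the match of arrays was partial. Within IL10KO, Cyp2b19 was highest on replicate 3, at 4.82. It was lower on replicate 2 (3.30), where the markers averaged 7.25, than on replicate 1 (3.78), where they averaged 5.08. On DKO replicate 3, where they averaged 5.09, it was 2.75. The part of squamous and sebaceous cells in the Cyp2b19 and Cyp4f39 results was not tested.

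**Figure D3:**
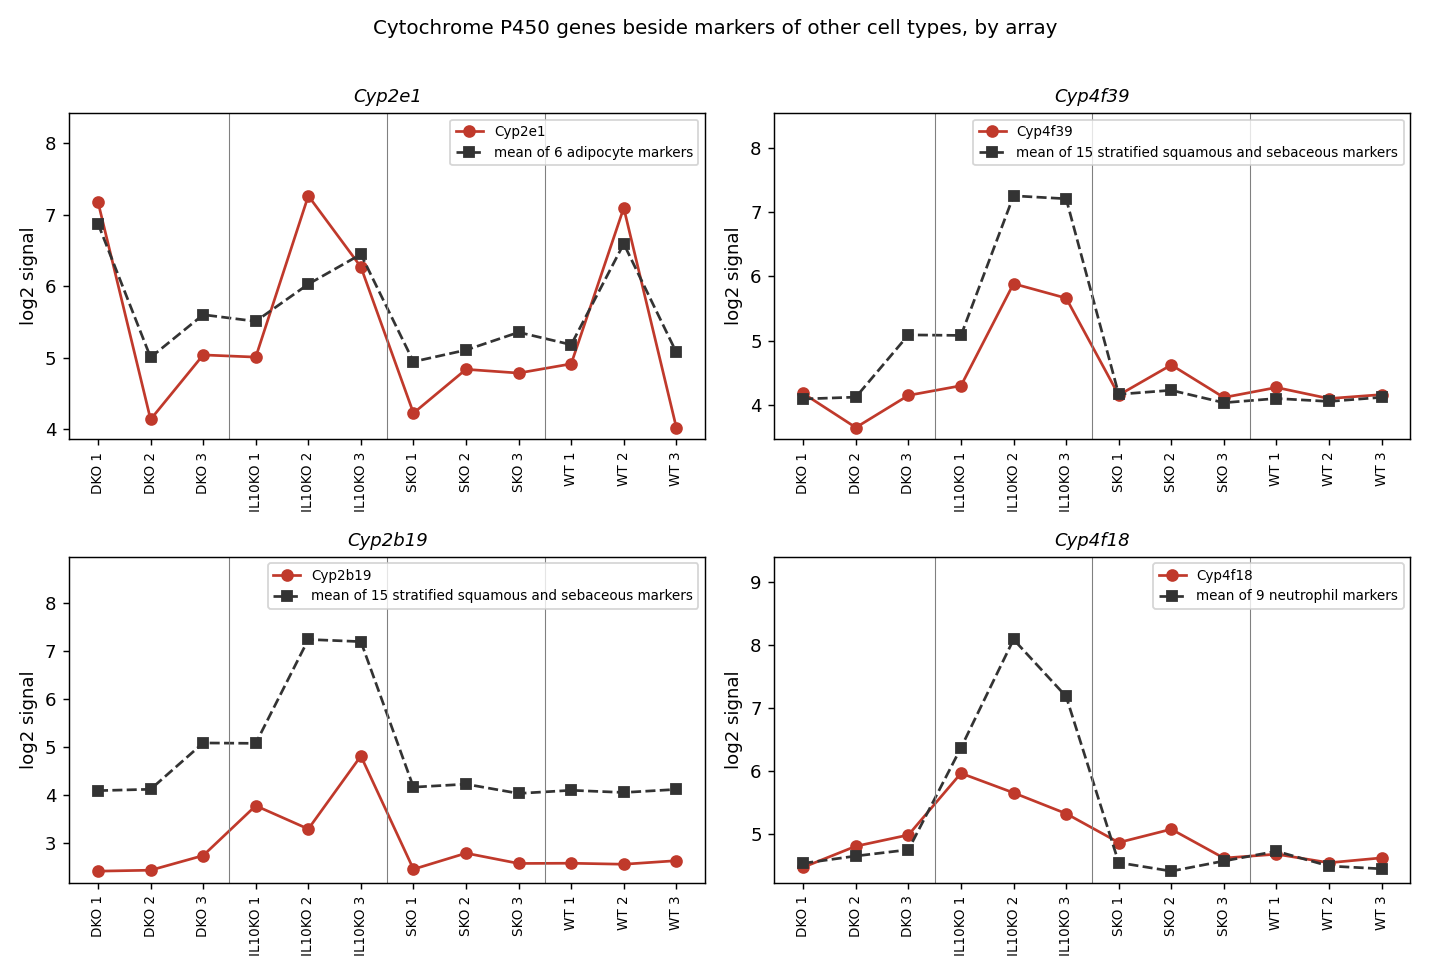
Log2 signal (y axis) of Cyp2e1, Cyp4f39, Cyp2b19 and Cyp4f18 in red and the mean of a marker list in black, for each of the 12 arrays (x axis); lines join arrays only to guide the eye. Cyp2e1 is high on DKO replicate 1, IL10KO replicate 2 and WT replicate 2, and the squamous markers are highest on IL10KO replicates 2 and 3.

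Cyp11a1, which starts steroid hormone synthesis, had a log2 signal of 4.98, 4.72 and 4.60 in the DKO arrays, 5.26, 5.56 and 5.35 in the IL10KO arrays, 4.64, 4.90 and 4.49 in the SKO arrays and 4.78, 4.95 and 4.26 in the arrays labelled WT. All IL10KO arrays lay above all others. It rose by 0.72 ± 0.19 (SE, adjusted p = 0.0302) against WT and was the only called member of the 5 steroid enzymes, while its second probe set was not called. The call ended without IL10KO replicate 2 or 3, WT replicate 1 or the library labelled WT replicate 3 (adjusted p up to 0.121). Adrenal markers, a list of 5, averaged between 3.51 and 3.93 on all arrays. Cyp7b1, an oxysterol hydroxylase, rose by 0.69 ± 0.20 (SE, adjusted p = 0.0483), and its call stood only without IL10KO replicate 1, DKO replicate 1 or DKO replicate 3 (adjusted p up to 0.128 otherwise). Cyp1b1, an Ahr-induced enzyme also found in stromal cells, rose by 0.66 ± 0.19 (SE, adjusted p = 0.0433), and its call stood only without IL10KO replicate 1, DKO replicate 1 or SKO replicate 2 (up to 0.117).

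**Figure D4:**
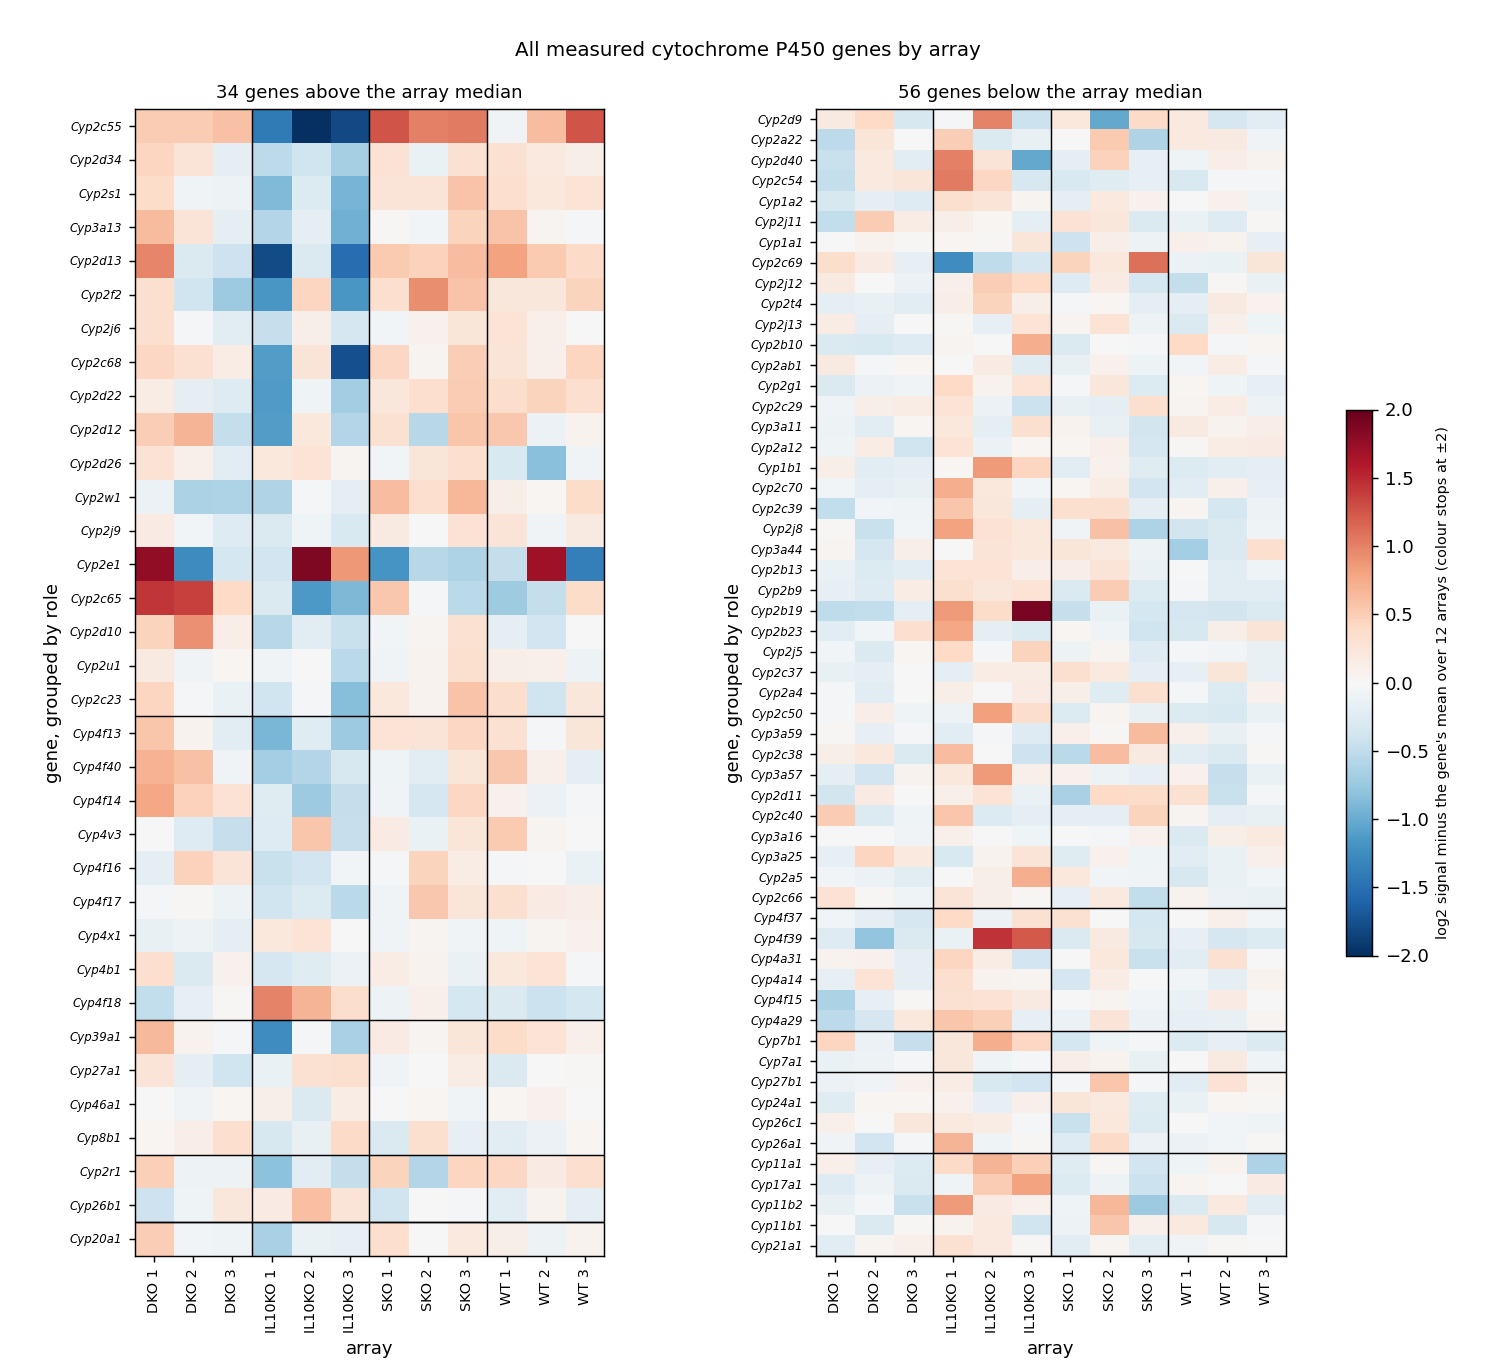
Log2 signal minus the gene's mean over the 12 arrays (colour, stopping at -2 and 2) for the 34 P450 genes above the array median, left, and the 56 below it, right. Genes (y axis) are grouped by role between horizontal lines, in the order drugs and arachidonic acid, omega-hydroxylation, bile acids and sterols, vitamins D and A, steroid hormones and orphan, and arrays (x axis) by genotype.

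No member was called in DKO against WT, DKO against SKO or SKO against WT. The background in these comparisons was also low, at 0.0451%, 0.0451% and 0% of all genes. At an unadjusted p below 0.05 there were 7, 5 and 2 of the 90 members, beside 648, 1059 and 454 of the 22180 genes. Without the library labelled WT replicate 3, 69 genes were called in DKO against WT and 55 in SKO against WT, again with no member. In DKO, Cyp2c55 lay close to WT, with a difference of -0.07 and a 95% interval of -0.97 to 0.84, which leaves room for a change of nearly 2-fold either way. Its WT mean of 10.95 includes the library labelled WT replicate 3, at 11.61, above WT replicates 1 and 2, at 10.28 and 10.97. All DKO arrays of Cyp2c55 lay below all SKO arrays, at an uncalled difference of -0.57 with an interval of -1.47 to 0.34. Cyp2c65 had the smallest adjusted p against WT, with a difference of 1.34, an interval of 0.59 to 2.09 and an adjusted p of 0.612. In DKO against SKO the smallest was that of Cyp2w1, an enzyme of the developing gut. Its log2 signal was 5.70, 5.19 and 5.20 in the DKO arrays, 5.21, 5.80 and 5.64 in the IL10KO arrays, 6.44, 6.15 and 6.48 in the SKO arrays and 5.94, 5.86 and 6.19 in the arrays labelled WT. The DKO arrays lay below all SKO arrays, at a difference of -1.0 with an interval of -1.40 to -0.59, and its adjusted p was 0.136.

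Whether the IL-10 effect differed with STING status was tested as DKO minus SKO less IL10KO minus WT. None of the 90 members passed, against 0.645% of all genes. At an unadjusted p below 0.05 there were 27 members, beside 3480 of the 22180 genes. Cyp4f18 came closest, at -1.13 (adjusted p = 0.0715), and Cyp2c55 had 2.27 ± 0.59 (SE, adjusted p = 0.113). Single IL10KO libraries moved this count. Over all genes, 143 passed on all 12 arrays, and 316, 376 and 122 without IL10KO replicate 1, 2 or 3. Without IL10KO replicate 1, Cyp2c55 (2.68, adjusted p = 0.0306) and Cyp4f39 (-1.90, adjusted p = 0.00244) passed. Without IL10KO replicate 2, Cyp2b19 (-1.78, adjusted p = 0.024) and Cyp2c68 (1.67, adjusted p = 0.0164) passed, and without IL10KO replicate 3, Cyp4f18 (-1.29, adjusted p = 0.0409). With array weights on all 12 arrays, 7 members passed, among them Cyp2c55 (2.13, adjusted p = 0.0294), but the estimation of the weights stopped before it converged. Over all genes, 736 passed with these weights. With equal weights on all 12 arrays the IL-10 effect was not shown to differ between STING genotypes for any member.

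Partners and regulators of the family were described from lists chosen for their function. Of 16 measured partner genes for electron transfer and heme, Hmox1, which breaks heme down, rose by 1.50 ± 0.26 (SE, adjusted p = 0.0045) in IL10KO against WT and fell by 1.61 ± 0.26 (SE, adjusted p = 0.0037) in DKO against IL10KO. Cyb5b, an outer mitochondrial cytochrome b5, fell by 0.76 ± 0.18 (SE, adjusted p = 0.02) and rose by 0.78 ± 0.18 (SE, adjusted p = 0.0219). Without the library labelled WT replicate 3, the rise of Hmox1 stood (1.60, adjusted p = 0.0114) and the fall of Cyb5b did not pass (-0.74, adjusted p = 0.0655). The list medians were -0.06 and 0.10, beside 0.03 and -0.04 over all genes and -0.11 and 0.10 over genes above the array median.

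Of 27 measured regulators, 5 fell and 0 rose in IL10KO against WT, with a median of -0.27, beside 5.01% of all genes that fell, 3.12% that rose and an all-gene median of 0.03. Of genes above the array median, 8% fell and 3.01% rose, with a median of -0.11. Hnf4g, a nuclear factor of the gut epithelium, fell by 0.85 ± 0.14 (SE, adjusted p = 0.00344). Vdr, the vitamin D receptor, fell by 0.73 ± 0.17 (SE, adjusted p = 0.0199), and Nr1i2, the pregnane X receptor, by 0.67 ± 0.17 (SE, adjusted p = 0.0269). Nr3c2, the mineralocorticoid receptor, gave -0.61 ± 0.15 (SE, adjusted p = 0.023). Without the library labelled WT replicate 3, 2 of these falls passed, those of Hnf4g (-0.89, adjusted p = 0.0114) and Hnf4a (-0.65, adjusted p = 0.0423), and Vdr (-0.72, adjusted p = 0.064) and Nr1i2 (-0.70, adjusted p = 0.0645) did not. In that fit, 3.76% of genes above the array median fell. In DKO against IL10KO, 4 regulators rose and 0 fell, with a list median of 0.17, beside 3.34% and 2.45% of all genes and an all-gene median of -0.04. Of genes above the array median, 5.37% rose and 2.33% fell, with a median of 0.10. The 4 regulators were Vdr at 0.75 ± 0.17 (SE, adjusted p = 0.0226), Nr1i2 at 0.67 ± 0.17 (SE, adjusted p = 0.0314), Nr3c2 at 0.62 ± 0.15 (SE, adjusted p = 0.0253) and Hnf4g at 0.61 ± 0.14 (SE, adjusted p = 0.0247).

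Other enzymes of the first phase of drug metabolism gave a mixed picture. Of 36 measured, 2 rose and 6 fell in IL10KO against WT, with a median of -0.42, beside 3.12% and 5.01% of all genes and a median of 0.03. Of genes above the array median, 3.01% rose and 8% fell, with a median of -0.11. In DKO against IL10KO, 5 rose and 1 fell, with a median of 0.40, beside 3.34% and 2.45% of all genes and a median of -0.04. Of genes above the array median, 5.37% rose and 2.33% fell here, with a median of 0.10. Aldh1a3, a retinaldehyde dehydrogenase, rose by 2.59 ± 0.34 (SE, adjusted p = 0.000796) and fell by 2.96 ± 0.34 (SE, adjusted p = 0.000368), and the carboxylesterase gene Ces2g fell by 1.45 ± 0.35 (SE, adjusted p = 0.0242) in IL10KO. Without the library labelled WT replicate 3, 3 rose and 3 fell, and Ces2g did not pass (-1.40, adjusted p = 0.0742). In that fit, 1.88% of genes above the array median rose and 3.76% fell.

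Colonocyte and smooth muscle markers also moved between the genotypes in which the P450 genes moved. Of 14 colonocyte markers, 6 fell in IL10KO against WT and 6 rose in DKO against IL10KO. Of all genes, 5.01% fell and 3.12% rose in the first comparison and 3.34% rose in the second, for this and the marker counts that follow. Aqp8, a water channel of surface colonocytes, fell by 1.26 ± 0.16 (SE, adjusted p = 6e-04) and rose by 1.53 ± 0.16 (SE, adjusted p = 0.000191). Of 10 smooth muscle markers, 8 fell and 8 rose in these comparisons, and of 9 goblet cell markers 3 fell and 3 rose. Macrophage markers had 2 of 8 higher in IL10KO than in WT. Without the library labelled WT replicate 3, 6 colonocyte, 6 smooth muscle and 2 goblet cell markers fell, beside 3.76% of genes above the array median. The part of cell composition in the P450 results was not tested.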

How the data were processed

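RNA from the colon in 12 samples, 3 per genotype, was hybridised to Affymetrix whole-transcript arrays, 300 ng per array. The deposited table holds log2 signals for 41345 probe sets, which the authors computed in Affymetrix Expression Console (release 1.3.1.187 in the submitters' processing notes). That the deposited values are log2 was inferred from their range. How background, summary and scaling were handled, and which genome build the array used, is not given in the sources used, so differences carry whatever scaling the authors applied.

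Groups came from the genotype in the labels. Of the probe sets, 23521 had 1 symbol, 1814 several and 16010 none in the platform annotation, and 6 P450 probe sets with several symbols were left out. The brightest probe set stood for each of 22180 genes. All 90 members matched a RefSeq gene. limma 3.58.1 (R 4.3.3) was fitted to all 12 arrays with 1 mean per genotype (8 residual and 5.56 prior degrees of freedom) and 6 two-sided comparisons, with Benjamini-Hochberg adjustment over all genes. Values in every array are given for members above the array median called in IL10KO against WT or DKO against IL10KO, and for the 5 of highest signal, a choice of what to show that ranks no gene's level. Other named members were called below the median, had the smallest adjusted p in another comparison, or were the 5 nearest to no difference. Further members and list genes, and all array values beyond that rule, were chosen after their values were seen. The members, lists and markers (20 lists, 228 of 244 entries measured) were chosen with earlier results of these data known. On simulated data for IL10KO against WT over 22180 genes, the procedure recovered 68% of 100 genes changed by 1 and 95% of 100 changed by 2 on the log2 scale, with 11 false calls. The simulated noise was normal, independent between genes and arrays, and held no effect shared by an array. The real comparison called far more genes, so these rates need not carry over to it. Alternatives were quantile normalization, median centring, the mean of probe sets, leaving out the dimmest 33.3% of genes, array weights, a trended robust prior, only the genotypes compared, each array left out, and 3 libraries left out together.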

Additional observations from a re-analysis of the deposited data

How the results depend on the processing

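For the calls of single members in IL10KO against WT and DKO against IL10KO, no direction reversed under the alternatives run, while 133 values no longer passed and 362 did. Differences of single members that were not called were not followed under the alternatives. For IL10KO against WT, 14 members were called, with 6 when only the genotypes compared were fitted, 7 (6 higher, 1 lower) without IL10KO replicate 1, SKO replicate 2 and the library labelled WT replicate 3 together, a setting chosen after seeing the data, and 6 to 15 when single arrays were left out. Over all genes, 1805 were called, with 704 when only the genotypes compared were fitted and 1013 without the 3 libraries. For DKO against IL10KO, 11 members were called, with 3 when only the genotypes compared were fitted and 1 to 18 when single arrays were left out. Over all genes, 1284 were called, and 489 when only the genotypes compared were fitted. Array weights, whose estimation stopped before it converged, gave 12 calls in DKO against SKO and 7 in the difference of the IL-10 effect, against 0 in both on equal weights. Over all genes these weights gave 1940 and 736 calls, against 10 and 143 on equal weights. The difference of the IL-10 effect gave 1 member call without the 3 libraries and 0 to 2 when single arrays were left out. DKO against WT and SKO against WT gave 0 member calls under each alternative run. Over all genes they gave 10 and 0 calls on all 12 arrays, and 69 and 55 without the library labelled WT replicate 3. The cause of these shifts was not tested, beyond the fewer arrays in each omission. Quantile normalization, median centring, the mean of probe sets, the dimmest genes left out and the trended prior kept the counts within 1.5 times. With the dimmest genes left out, only 40 of the 90 members were tested. Single calls did change. In IL10KO against WT, the rises went from 6 to 4 with quantile normalization and to 3 with median centring. The mean of probe sets ended the Cyp11a1 call. In DKO against IL10KO, quantile normalization ended the calls of Cyp2d34, Cyp4f13 and Cyp4f39. No paired analysis was possible because the labels give no replicate numbers that the genotypes share. The table carries no signal over background, so how far dim signals limit the members below the median is unknown.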

Other observations

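The P450 genes whose symbols fall outside the naming pattern were not called in any comparison. Cyp51, the lanosterol demethylase of cholesterol synthesis, had a log2 signal of 8.89, 9.04 and 9.14 in the DKO arrays, 8.59, 8.64 and 8.69 in the IL10KO arrays, 8.65, 7.86 and 8.54 in the SKO arrays and 8.67, 8.52 and 8.66 in the arrays labelled WT. The DKO arrays lay above all others, and SKO replicate 2 was the lowest. Tbxas1, the thromboxane synthase gene, and Ptgis, the prostacyclin synthase gene, completed the list, whose median differences were 0.02 in IL10KO against WT and -0.10 in DKO against IL10KO.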
